A study of Sus scrofa with 18 samples.

Results

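The livers of growing pigs fed the higher and the lower amount of insect meal were compared with each other across all probe sets of the array. The 12 arrays were taken by their titles, 6 from group IM10 and 6 from group IM5, out of 18 arrays in all. The 6 arrays of the soybean control group (CON) entered no test. They did enter the choice of genes through those taken from the study, which had compared IM10 with CON. Each array held liver RNA of 1 male crossbred pig. Breeding was Piétrain x (German Landrace x German Edelschwein). Feeding began at an age of 5 weeks and lasted 4 weeks, and the pigs were killed in the fed state on day 29. Group IM10 received 10% insect meal from larvae of the mealworm Tenebrio molitor in place of 100% of the soybean extraction meal. Group IM5 received 5% insect meal in place of 50% of it. The IM10 diet also held more cellulose, less starch, no rapeseed or safflower oil and other amounts of single amino acids than the IM5 diet, so that insect meal and these ingredients cannot be told apart. Of the 10 pigs of each group, 6 were drawn at random for the arrays. Pigs were penned in small groups. Which pigs shared a pen is not given in the sources used here, and all pigs entered the tests as independent.

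The liver takes up the nutrients that the gut delivers and adapts its enzymes to them. Amino acids that are not used for protein are broken down, their nitrogen leaves as urea and their carbon skeletons can be turned into glucose. The liver also makes cholesterol and converts part of it into bile acids, lengthens and desaturates fatty acids, and secretes plasma proteins, among them the acute phase proteins of inflammation and hepcidin, the hormone that limits iron uptake. Kupffer cells, the resident macrophages of the liver, line its sinusoids together with endothelial cells and clear particles from portal blood.

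Across 25388 probe sets, IM10 and IM5 livers differed little. A total of 404 probe sets (1.59%) met the criteria of a fold change over 1.2 in either direction and an unadjusted limma p under 0.05, of which 210 (0.827%) were higher and 194 (0.764%) lower in IM10. At an unadjusted p under 0.05 alone there were 1372 probe sets (5.4%), and the exact permutation test gave 1418 (5.59%). After Benjamini-Hochberg adjustment over all probe sets, limma called 0, the smallest adjusted p being 0.881. Differences were small as well. The median fold change of the 404 probe sets was 1.25, 22 of them reached 1.5-fold and 4 reached 2-fold. The median difference in size over all probe sets was 0.0683 on the log2 scale, beside a median SD between pigs of 0.144 in IM10 and 0.161 in IM5. All genes below are therefore described with an adjusted limma p of 0.881 or more, and the exact p of a gene named for its size is a description of that gene, since the same pigs chose it.

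**Figure D1:**
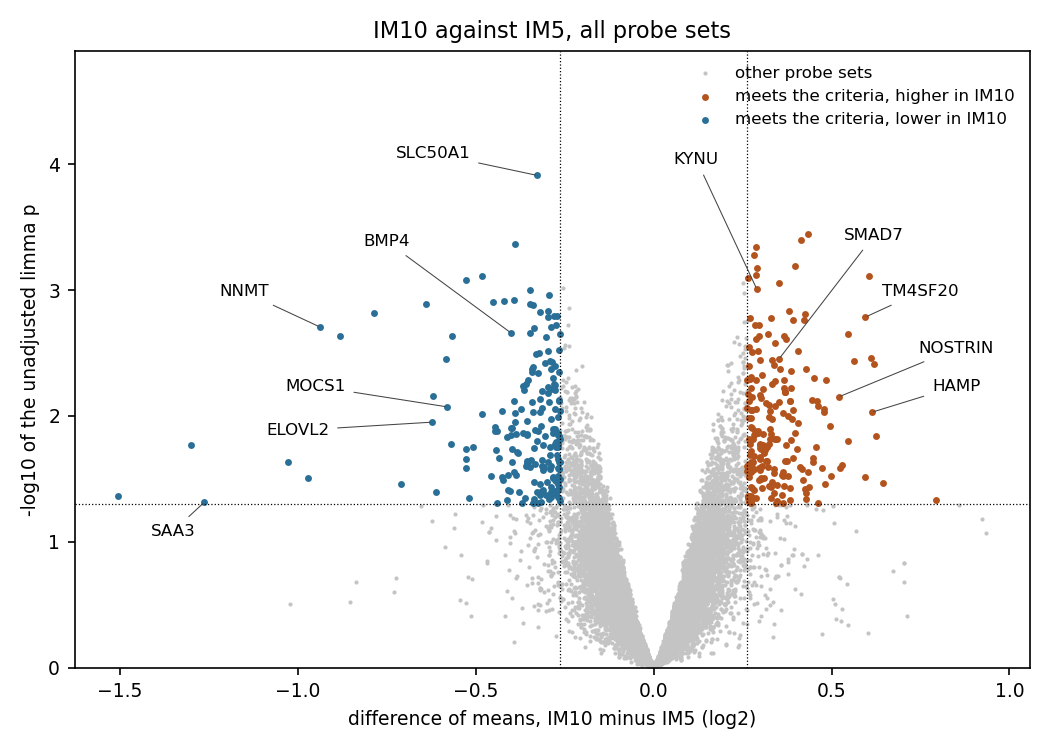
Difference of group means (IM10 minus IM5, log2 scale) against −log10 of the unadjusted limma p for 25388 probe sets, with dotted lines at a fold change of 1.2 and a p of 0.05. Coloured points are the 210 probe sets higher and the 194 lower in IM10 that met both criteria. Differences in size over 1 occur only below 0, on the side lower in IM10.

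Of the 404 probe sets, 175 carried 1 gene symbol and stood for 80 genes higher and 91 genes lower in IM10, and 229 could not be named from the annotation. Values are deposited log2 values made by robust multi-array averaging (RMA), given as the lowest, median and highest of the 6 pigs of a group or as mean ± SD with n = 6. A difference of 1 is a 2-fold change. Hepatocyte markers were at the top of the scale in both groups (albumin ALB 12.9 ± 0.047 in IM10 and 12.9 ± 0.033 in IM5), and 0 of 8 measured hepatocyte markers met the criteria. Among them the hepatocyte transcription factor HNF4A differed most, at 8.93 ± 0.12 in IM10 and 9.19 ± 0.17 in IM5 (exact permutation p = 0.0152). Array medians lay between 5.05 and 5.15 and the correlation of any pair of arrays between 0.986 and 0.992, so no array stood apart as a whole. IM5 replicate 5 was the highest or lowest pig in several of the genes and lists below, and values without it are given for some of the lists that it moved. The circadian clock list, not described below, had a median of -0.105 with all pigs and of -0.016 without this pig. In both cases 0 of its 15 measured genes met the criteria. Members of lists that did not meet the criteria are named after their values were seen.

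Among named genes that met the criteria, the largest differences were on the side lower in IM10. NNMT (probe set 15325936) encodes nicotinamide N-methyltransferase, which methylates the vitamin nicotinamide at the expense of S-adenosylmethionine. Its level was 5.48, 5.59 and 6.43 (lowest, median, highest) in IM10 pigs, against 5.93, 6.52 and 7.40 in IM5 pigs. IM10 replicate 2 alone lay within the IM5 range, and the other 5 IM10 pigs lay between 5.48 and 5.65, below every IM5 pig. The difference of -0.94 was 1.91-fold (exact permutation p = 0.0108), and the exact p stayed at or under 0.0238 without any single pig. NNMT belongs to the list of NAD and nicotinamide metabolism, in which 2 of 9 measured genes met the criteria, both lower in IM10. The other one was BST1, an ectoenzyme that makes cyclic ADP-ribose from NAD, at 6.73 ± 0.28 in IM10 and 7.02 ± 0.24 in IM5 (exact permutation p = 0.0823), and it lost the criteria when any one of 7 pigs was left out (IM10 replicates 1, 2 and 5 and IM5 replicates 2, 3, 4 and 5). NAMPT, which salvages nicotinamide into NAD, was 8.11 ± 0.17 in IM10 and 7.88 ± 0.14 in IM5 (exact permutation p = 0.0325), below the fold threshold.

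ELOVL2 (15314025), the elongase that lengthens polyunsaturated fatty acids on the way to docosahexaenoic acid, was 1.54-fold lower in IM10. The values were 7.15, 7.43 and 8.05 in IM10 pigs, against 7.42, 8.18 and 8.85 in IM5 pigs (exact permutation p = 0.0368). The groups overlapped, with IM5 replicates 4 and 6 at 7.42 and 7.79 among the IM10 pigs, and the exact p rose to as much as 0.0758 when single pigs were left out. FADS1 and FADS2, the desaturases of this route, differed by 0.055 and -0.092 (exact permutation p = 0.732 and 0.392), and ELOVL2 was the only 1 of 6 measured genes of polyunsaturated fatty acid synthesis to meet the criteria.

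MOCS1 (15315806), which starts the synthesis of the molybdenum cofactor, was 1.49-fold lower in IM10, at 6.26, 7.32 and 7.49 in IM10 pigs, against 7.38, 7.71 and 8.16 in IM5 pigs (exact permutation p = 0.0152). The overlap came from IM5 replicate 2 alone, and IM10 replicate 4 at 6.26 lay far below the other 5 IM10 pigs. Without it the difference was -0.40. TREM1, a receptor of neutrophils and monocytes that amplifies inflammation, was 4.03 ± 0.16 in IM10 and 4.45 ± 0.23 in IM5 (exact permutation p = 0.00866). FKBP1B, which binds the calcium release channel of the endoplasmic reticulum, was 5.76 ± 0.38 in IM10 and 6.29 ± 0.43 in IM5 (exact permutation p = 0.0455). KLF9, a zinc finger transcription factor induced by glucocorticoids, was 5.92, 6.34 and 6.89 in IM10 pigs, against 6.66, 6.76 and 7.13 in IM5 pigs (exact permutation p = 0.0563). Only IM10 replicates 2 and 3 reached into the IM5 range.

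On the side higher in IM10, HAMP and TM4SF20 had the largest differences among named genes that met the criteria. Larger ones that did not meet them were seen, for example in ASAH2, a ceramidase, at 7.41 ± 0.66 in IM10 and 6.47 ± 1.36 in IM5 (difference 0.94, exact permutation p = 0.156), which is given after its values were seen. HAMP (15296534) encodes hepcidin. It stood at 8.01, 8.27 and 8.67 in IM10 pigs, against 6.99, 7.53 and 8.46 in IM5 pigs (1.53-fold, exact permutation p = 0.0411). The IM10 pigs were close together, and 4 of 6 IM5 pigs lay below all of them. The exact p rose to as much as 0.0801 when single pigs were left out. TM4SF20 (15241625), a membrane protein that spans the membrane several times, was 1.51-fold higher at 4.96, 5.14 and 5.75 in IM10 pigs, against 4.32, 4.66 and 5.08 in IM5 pigs (exact permutation p = 0.00866). Only IM5 replicate 2 reached into the IM10 range, and the exact p stayed at or under 0.0195 without any single pig.

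NOSTRIN (15236412), which controls the traffic of the endothelial nitric oxide synthase, was 6.74, 7.00 and 7.25 in IM10 pigs, against 5.61, 6.60 and 6.82 in IM5 pigs (exact permutation p = 0.00433). The overlap came from IM5 replicate 4, at 6.82. IM5 replicate 5 lay far below the others, and without it the difference was 0.35, against 0.52 with all pigs, with the exact p at or under 0.0152 whichever pig was left out. KLRK1, the activating receptor NKG2D of natural killer and T cells, was 4.30 ± 0.48 in IM10 and 3.75 ± 0.33 in IM5 (exact permutation p = 0.0541). The actin regulator ENAH was 5.86 ± 0.40 in IM10 and 5.38 ± 0.22 in IM5 (exact permutation p = 0.0281). The remaining leading genes encode proteins of unlike function, among them the potassium channel KCNMA1, the cytokine receptor IL20RA, the phosphatase DUSP1 and the inner ear matrix protein TECTB, with fold changes between 1.33 and 1.44 and exact permutation p-values between 0.0216 and 0.113. Levels of the probe sets named for GABRQ, IL20RA, LOC100154932 and ADGB averaged under 4 in both groups, and detection calls were not used here to set them against background. The other 2 probe sets of ADGB differed by 0.22 and -0.14.

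**Figure D2:**
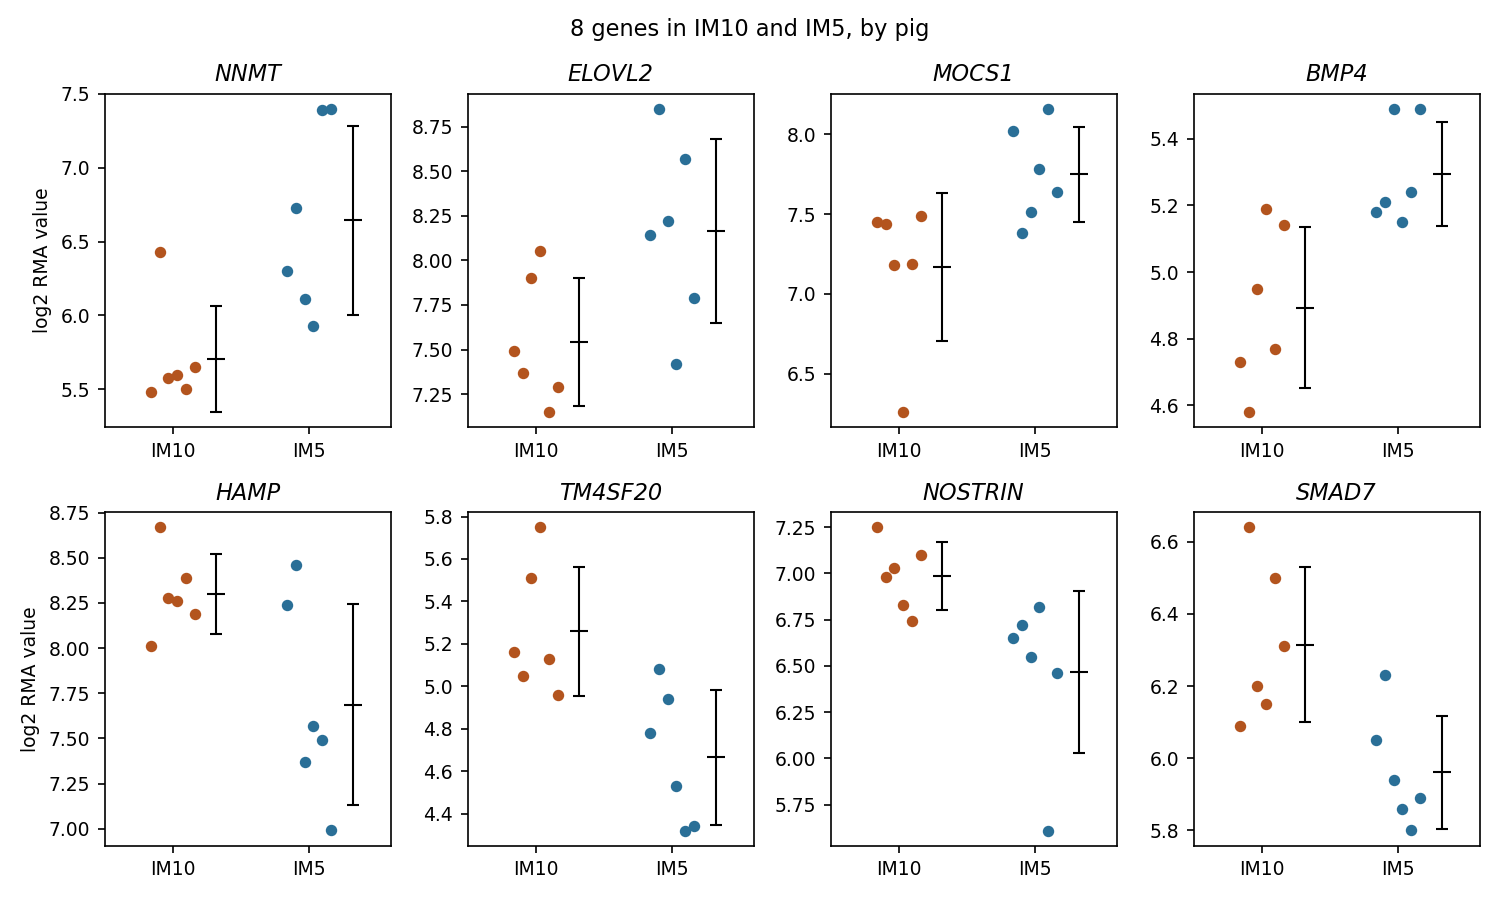
Log2 RMA values of 8 genes in the 6 IM10 pigs (left in each panel) and the 6 IM5 pigs, with the mean and SD of the group beside the points and a separate vertical axis in each panel. The upper row holds genes lower in IM10 and the lower row genes higher in IM10, and in NNMT the IM10 pigs other than replicate 2 lie between 5.48 and 5.65.

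In 54 probe sets (0.213%) all 6 pigs of one group lay above all 6 of the other, 34 higher (0.134%) and 20 lower (0.0788%) in IM10, and 13 of them (0.0512% of all probe sets) also met the criteria. Random labels would separate a share of about 0.00216 of probe sets, the smallest p of the exact permutation test. The observed share of 0.213% was near that of chance. Complete separation went with small differences. The sugar transporter gene SLC50A1 (15285268) was 5.57, 5.60 and 5.74 in IM10 pigs, against 5.81, 5.94 and 6.09 in IM5 pigs, which was 1.25-fold lower in IM10. SDC4, a heparan sulfate proteoglycan of the cell surface, was 7.97 ± 0.13 in IM10 and 8.27 ± 0.11 in IM5. EMILIN1, a glycoprotein of elastic fibres, was 6.00 ± 0.11 in IM10 and 6.30 ± 0.11 in IM5. GCAT, which splits the product of threonine oxidation into glycine and acetyl-CoA, was 7.50 ± 0.15 in IM10 and 7.78 ± 0.037 in IM5. It was measured by 2 probe sets with nearly the same values, and IM10 replicate 1 was the lowest in both. SLC50A1 met the criteria without any single pig. The others lost them without 1 or 2 pigs by falling below the fold threshold, SDC4 without IM5 replicate 2, EMILIN1 without IM10 replicate 1 and GCAT without IM10 replicate 1 or, in 1 probe set, IM5 replicate 5.

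Among genes higher in IM10, IRAK3, which restrains signalling from Toll-like receptors, separated the groups at 7.95 ± 0.13 in IM10 and 7.65 ± 0.12 in IM5. IRAK3 lost the criteria without IM10 replicate 1 or IM5 replicate 3. The uncharacterised locus LOC100524754 separated them at 1.80 ± 0.080 in IM10 and 1.53 ± 0.080 in IM5, near the bottom of the scale, and lost the criteria when any one of 6 pigs was left out. Each of these separations has the smallest exact permutation p that 6 against 6 pigs can give, 0.00216. KYNU, which cleaves kynurenine in the breakdown of tryptophan, had 8.67 as its lowest IM10 and its highest IM5 value and averaged 8.80 ± 0.10 in IM10 and 8.51 ± 0.11 in IM5 (exact permutation p = 0.00433). KYNU was the only 1 of 10 measured genes of aromatic amino acid breakdown that met the criteria. Without IM5 replicate 3 its difference was 0.26, below the fold threshold.

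Gene lists were described by how many members were higher or lower, how many met the criteria and by the median difference, with 1 probe set per gene. Over all 12307 named genes, 48.8% were higher and 50.8% lower in IM10, the median difference was -0.0033, and 161 (1.31%) met the criteria, 72 (0.585%) higher and 89 (0.723%) lower. Of 974 different list genes measured, 31 met the criteria, and 43 of 68 lists held 0 such genes. Medians lay between -0.20 and 0.21, and 7 lists had a median over 0.1 in size.

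Cholesterol synthesis was the list with the highest median, 0.21, and 10 of its 12 measured genes were higher in IM10. HMGCS1 and SQLE met the criteria, both higher (16.7% of the list). HMGCS1 (15242729), the synthase at the entry of the mevalonate route, was 10.5, 10.9 and 11.3 in IM10 pigs, against 9.74, 10.5 and 10.9 in IM5 pigs (1.39-fold, exact permutation p = 0.0563). SQLE, the squalene epoxidase, was 9.32 ± 0.20 in IM10 and 8.98 ± 0.27 in IM5 (1.27-fold, exact permutation p = 0.0303). In both genes the groups overlapped, IM5 replicate 5 was the lowest of all pigs, and without it neither met the criteria. HMGCS1 also lost them without IM10 replicate 1, IM10 replicate 2 or IM5 replicate 6.

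Smaller differences in the same direction were found further down the route. MSMO1, NSDHL and SC5D, enzymes of the late steps, differed by 0.20, 0.23 and 0.11 (exact permutation p = 0.013, 0.0476 and 0.0346), and STARD4, which carries sterols between membranes, differed by 0.25 (exact permutation p = 0.0238). The exceptions were TM7SF2, a sterol reductase, and PMVK, with differences of -0.12 and -0.01 (exact permutation p = 0.126 and 0.944). Averaged over the list, IM10 replicates 1, 2 and 3 were the highest of the 12 pigs and IM10 replicates 4, 5 and 6 lay within the IM5 range, so the level was not shared by all IM10 pigs. CYP7A1, the enzyme that starts the conversion of cholesterol into bile acids, was 9.83 ± 0.17 in IM10 and 9.47 ± 0.40 in IM5 (1.29-fold, exact permutation p = 0.0346). IM5 replicate 5 was again the lowest of all pigs, and the difference was 0.22 without it, when the criteria were not met. They were also lost without IM10 replicate 1, 2 or 3 or IM5 replicate 4. The other 10 measured genes of bile acid synthesis and transport did not meet the criteria, and in fatty acid and triacylglycerol synthesis 0 of 16 genes did (1 without IM5 replicate 5).

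Genes of gluconeogenesis and of the urea cycle were mostly lower in IM10. Of 10 measured gluconeogenesis genes 9 were lower, the median difference was -0.18, and PCK1 and SLC37A4 met the criteria (20.0% of the list). PCK1 (15247697), the cytosolic phosphoenolpyruvate carboxykinase, was 7.81, 8.58 and 9.20 in IM10 pigs, against 8.24, 9.0 and 9.90 in IM5 pigs (1.53-fold lower, exact permutation p = 0.0931). The groups overlapped widely, and a second probe set of PCK1 differed by -0.52. PCK1 lost the criteria when any one of 7 pigs was left out (IM10 replicates 1, 2, 3 and 6 and IM5 replicates 1, 4 and 5). SLC37A4, which carries glucose 6-phosphate into the endoplasmic reticulum, was 8.13 ± 0.18 in IM10 and 8.53 ± 0.39 in IM5 (exact permutation p = 0.0584). The alanine transaminase GPT2, which also releases amino acid carbon, was 6.55 ± 0.70 in IM10 and 7.14 ± 0.74 in IM5 and did not meet the criteria (exact permutation p = 0.19).

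In the urea cycle 6 of 7 measured genes were lower in IM10 and the median difference was -0.20. ARG2, the mitochondrial arginase, met the criteria (14.3% of the list) at 3.90 ± 0.15 in IM10 and 4.22 ± 0.38 in IM5 (exact permutation p = 0.0433). IM5 replicate 5 stood at 4.98 and the other IM5 pigs at 3.91 to 4.18, and without it the difference was -0.17 and the criteria were not met, nor were they without any one of 7 other pigs. ARG2 was dim beside the list as a whole, whose mean level was 7.85 to 8.10 in IM10 pigs and 8.03 to 8.41 in IM5 pigs. Detection calls were not used here to set it against background. The ornithine carrier SLC25A15 and the activator-forming enzyme NAGS differed by -0.25 and -0.20 (exact permutation p = 0.0952 and 0.0541). ASS1, the argininosuccinate synthase, did not give 1 answer. Its brighter probe set was 9.79 ± 0.28 in IM10 and 10.1 ± 0.28 in IM5, whereas its second probe set, given here after its values were seen, was 7.33 ± 1.26 in IM10 and 6.41 ± 0.58 in IM5, and neither passed the exact permutation test (p = 0.11 and 0.143). With the median over all probe sets of a gene, the median of the urea cycle was -0.065.

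IM5 replicate 5 carried much of both lists. Averaged over the gluconeogenesis genes, it lay 0.54 above the mean of the 12 pigs, and the other 11 pigs lay between -0.24 and 0.13. Averaged over the urea cycle genes it lay 0.34 above the mean, and the other 11 pigs lay between -0.22 and 0.08. Without this pig the gluconeogenesis median was -0.09 with 9 of 10 genes still lower and 1 meeting the criteria, and the urea cycle median was -0.15 with 6 of 7 lower and 0 meeting the criteria.

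Amino acid transporters leaned the same way, with 13 of 17 lower in IM10 and a median of -0.093. SLC38A2, a sodium-coupled carrier of small neutral amino acids, met the criteria (5.88% of the list) at 8.77 ± 0.12 in IM10 and 9.11 ± 0.44 in IM5 (exact permutation p = 0.0498). IM5 replicate 5 stood at 9.93, and without it the difference was -0.18 and the criteria were not met, nor were they without any one of 7 other pigs. The median of the list was -0.069 without IM5 replicate 5. A second probe set of SLC38A2 differed by -0.39 (exact permutation p = 0.0216). The genes of the amino acid shortage response driven by ATF4 were split evenly, 9 higher and 9 lower, with 0 meeting the criteria. In branched-chain amino acid breakdown 0 of 17 genes met the criteria, although ACADSB, a dehydrogenase of the isoleucine route, separated the groups completely at 10.4 ± 0.13 in IM10 and 10.1 ± 0.09 in IM5.

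**Figure D3:**
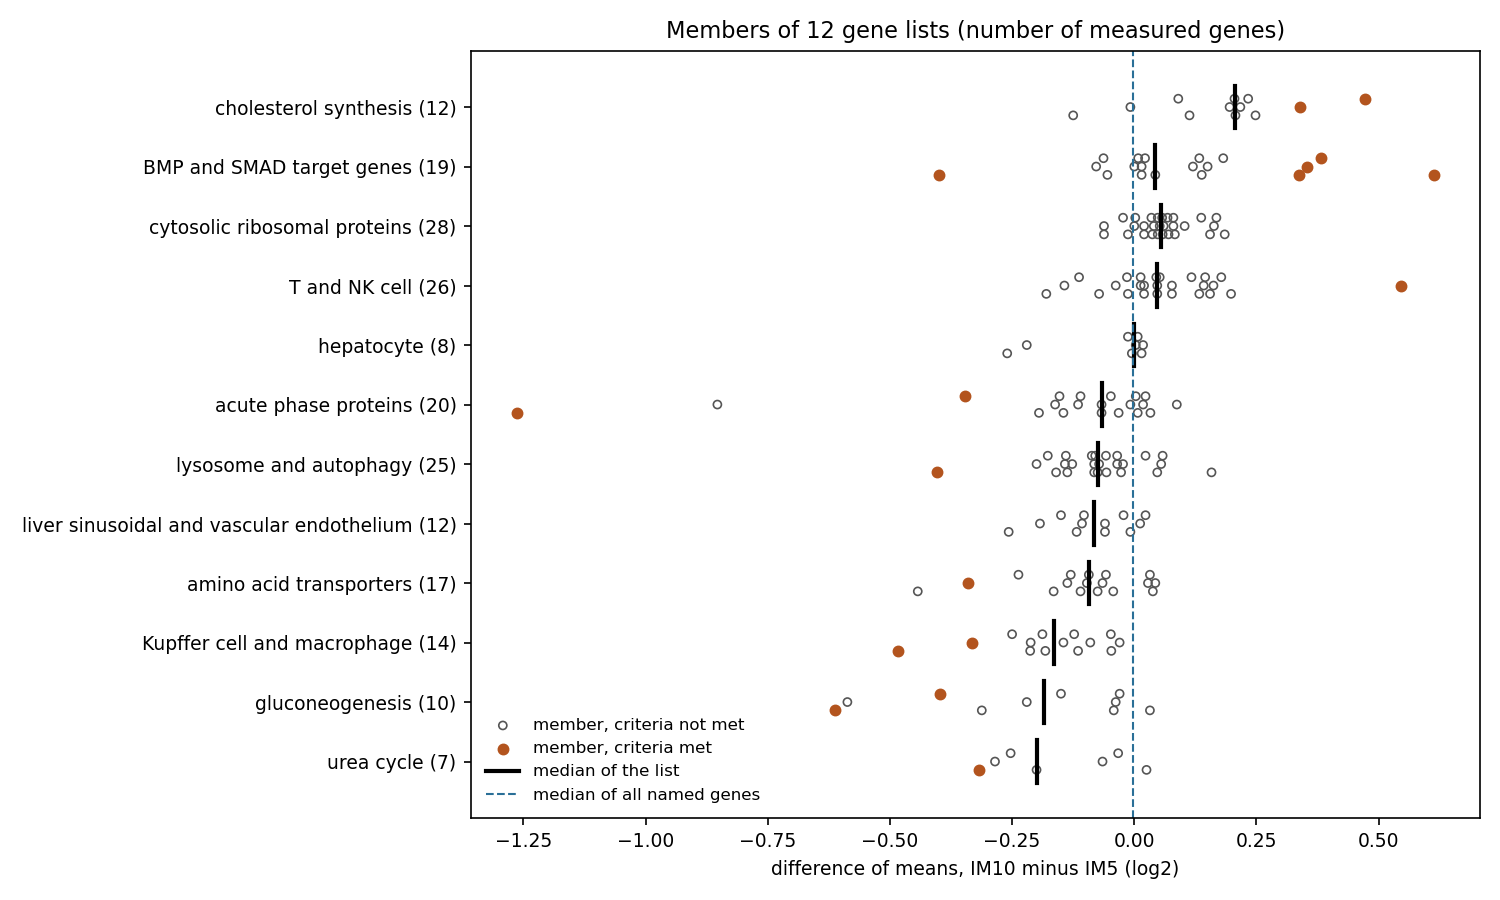
Difference of group means (IM10 minus IM5, log2 scale) of each measured member of 12 gene lists, with the number of measured genes in brackets, the median of each list as a bar and the median of all named genes as a dashed line. Filled points met the criteria, and the medians run from 0.21 in cholesterol synthesis to -0.20 in the urea cycle.

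Bone morphogenetic proteins (BMPs) are secreted signals that act through receptors and SMAD proteins, and in the liver they set the level of hepcidin. Of 19 measured genes of the list, 5 met the criteria (26.3% of the list), 4 higher and 1 lower in IM10. The ligand gene BMP4 was the one that was lower, at 4.58, 4.86 and 5.19 in IM10 pigs, against 5.15, 5.22 and 5.49 in IM5 pigs (1.32-fold, exact permutation p = 0.00866). Only IM10 replicate 4 reached into the IM5 range. The receptor genes ACVR1, BMPR1A and BMPR2 and the ligand genes BMP2 and BMP6 differed by -0.06 to 0.12, with exact permutation p-values between 0.203 and 0.896.

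The 4 genes higher in IM10 were HAMP, SMAD7, ID1 and ID2, all targets of the pathway. HAMP is given above. SMAD7 (15194015), which feeds back on the receptors as an inhibitor, was 6.09, 6.26 and 6.64 in IM10 pigs, against 5.80, 5.92 and 6.23 in IM5 pigs (1.28-fold, exact permutation p = 0.0108), and its exact p stayed at or under 0.0238 without any single pig. ID1 and ID2, inhibitors of helix-loop-helix transcription factors, were 7.36 ± 0.28 and 9.32 ± 0.20 in IM10, against 6.98 ± 0.42 and 8.98 ± 0.32 in IM5 (exact permutation p = 0.0996 and 0.0541). In both ID genes the groups overlapped, and the criteria were lost when any one of 7 pigs (ID1) or 5 pigs (ID2) was left out. The inhibitor SMAD6 and the decoy receptor BAMBI, which are also targets, were not higher, with differences of -0.08 and -0.06 (exact permutation p = 0.323 and 0.305). Of the 15 iron handling genes only HAMP met the criteria, and the transferrin receptor TFRC, at 9.60 ± 0.29 in IM10 and 9.23 ± 0.47 in IM5, did not (exact permutation p = 0.139). The genes HAMP, ID1 and SMAD7 belong to the genes that the study itself picked from these pigs, so their direction here is not independent of that choice.

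The markers of Kupffer cells and macrophages were lower in IM10 without exception, 14 of 14 measured genes, with a median difference of -0.16. CLEC4F and TIMD4 met the criteria (14.3% of the list). CLEC4F (15271077), a lectin that marks Kupffer cells in mice, was 6.61, 7.22 and 7.57 in IM10 pigs, against 7.23, 7.67 and 7.91 in IM5 pigs (1.40-fold, exact permutation p = 0.0346). TIMD4, the receptor by which resident macrophages bind dying cells, was 6.40 ± 0.24 in IM10 and 6.74 ± 0.20 in IM5 (exact permutation p = 0.0281). In both genes the groups overlapped, and TIMD4 lost the criteria without IM5 replicate 5.

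CSF1R, the receptor for the growth factor of macrophages, separated the groups completely at 7.00, 7.24 and 7.31 in IM10 pigs, against 7.35, 7.42 and 7.50 in IM5 pigs, with a fold change of 1.16 that was below the threshold. The complement gene C1QC differed by -0.25 (exact permutation p = 0.0346), and C1QB, C1QA, ADGRE1, CD14, VSIG4 and MARCO by -0.21 to -0.05 (exact permutation p between 0.0758 and 0.799). The mean log2 level of the list ranged from 7.29 to 7.65 in IM10 pigs and from 7.52 to 7.82 in IM5 pigs. IM10 replicates 1 and 2 lay among the IM5 pigs when deviations were averaged over the list. Leaving out single pigs gave medians of -0.22 to -0.12 with 12 to 14 genes lower and 1 to 5 meeting the criteria, and the median was -0.13 with 14 lower without IM5 replicate 5. In bulk liver, fewer cells of a type and less RNA per cell cannot be told apart.

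**Figure D4:**
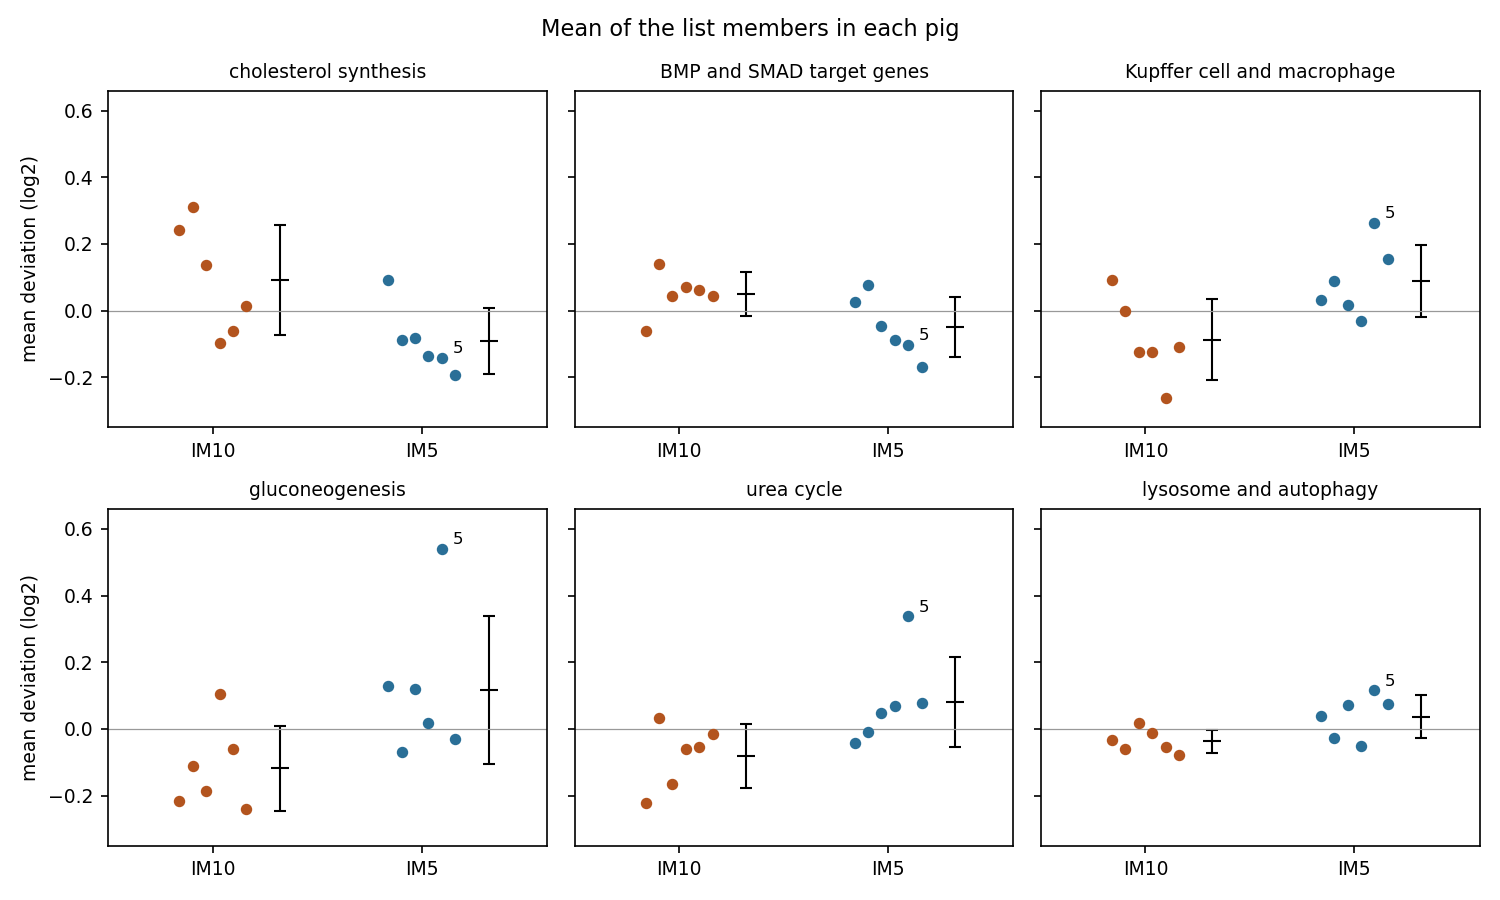
Mean over the measured members of 6 gene lists of the deviation from each gene's mean over the 12 pigs (log2 scale), for the 6 IM10 pigs (left in each panel) and the 6 IM5 pigs, with the mean and SD of the group beside the points. The pig marked 5 is IM5 replicate 5, which stands at 0.54 for gluconeogenesis and 0.34 for the urea cycle.

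Other markers of sinusoidal and immune cells differed less. All 5 measured dendritic cell genes were lower in IM10, with a median of -0.13 and 0 meeting the criteria. Of 12 endothelial genes 10 were lower, with a median of -0.082 and 0 meeting the criteria, the transforming growth factor coreceptor ENG being lowest at -0.26 (exact permutation p = 0.0195). Of 26 T and NK cell genes 19 were higher (14 without IM5 replicate 5) and only KLRK1 met the criteria. The granzyme GZMA differed by 0.20 (exact permutation p = 0.0152). Of 25 lysosome and autophagy genes 20 were lower with a median of -0.075, and the protease CTSZ met the criteria (4.00% of the list) at 8.90 ± 0.24 in IM10 and 9.31 ± 0.45 in IM5 (exact permutation p = 0.0758), and lost the criteria when any one of 7 pigs was left out. Without IM5 replicate 5 the lysosomal median was -0.048 with 0 meeting the criteria. The lysosomal ion channel MCOLN1 separated the groups completely at 6.85 ± 0.078 in IM10 and 7.05 ± 0.045 in IM5. The part of macrophage content in the lysosomal difference was not tested.

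Some acute phase genes varied widely between pigs. SAA3 (15255411), a serum amyloid A protein, was 5.03, 8.40 and 9.03 in IM10 pigs, against 8.52, 8.90 and 9.12 in IM5 pigs, a 2.40-fold lower mean in IM10 (exact permutation p = 0.0996). The mean came from a minority of pigs. IM10 replicates 4 and 5 stood at 5.03 and 5.73, the remaining 10 pigs of both groups at 8.22 or more, and without IM10 replicate 4 the difference was -0.75. The criteria were lost without either of these pigs or without any one IM5 pig. In the control group, which was not tested, replicates 2 and 4 also stood low, at 5.35 and 5.49. A pattern of 2 separate levels with a gap of at least 1 was found in 14 probe sets (0.0551%) and in 2 of the 404 that met the criteria (0.495%). Serum amyloid A genes have near-identical copies, which the probes may not tell apart, so the value is uncertain.

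CRP, the C-reactive protein, was 9.90 ± 0.19 in IM10 and 10.3 ± 0.34 in IM5 and met the criteria (exact permutation p = 0.0606), except without IM10 replicate 1 or 5 or IM5 replicate 5 or 6. Haptoglobin HP was 12.2 ± 0.065 in IM10 and 12.3 ± 0.065 in IM5 (exact permutation p = 0.0216), below the fold threshold. SERPINA3-2 is given here after its values were seen. It was at 5.95 in IM10 replicate 1 and at 11.05 or more in each of the other 11 pigs. Its difference of -0.85 thus came from 1 pig and was 0.10 without it. Control replicate 1 also stood low for this gene, at 6.68. In all, 14 of 20 acute phase genes were lower in IM10, with a median of -0.067, and 2 met the criteria (10.0% of the list), 0 without IM5 replicate 5.

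Retinoid genes held a pair of genes that met the criteria, both lower in IM10. CYP26A1, which degrades retinoic acid, was 5.25 ± 0.28 in IM10 and 5.59 ± 0.25 in IM5, and DHRS3, which reduces retinaldehyde, was 9.12 ± 0.13 in IM10 and 9.39 ± 0.28 in IM5 (exact permutation p = 0.0541 and 0.0628). CYP26A1 lost the criteria when any one of 4 pigs was left out and DHRS3 when any one of 7 was. Both are induced by retinoic acid, and the other 17 measured genes of the list did not meet the criteria. Ribosomal protein genes leaned higher by a small amount, 23 of 28, with a median of 0.054 and 0 meeting the criteria, and RPL5 separated the groups completely at 9.96 ± 0.081 in IM10 and 9.80 ± 0.049 in IM5. Of the immediate early genes, 13 of 18 were lower in IM10, among them the mRNA decay factor ZFP36 at 7.50 ± 0.20 in IM10 and 7.79 ± 0.16 in IM5 (exact permutation p = 0.0195), whereas DUSP1 was higher at 8.39 ± 0.23 in IM10 and 7.95 ± 0.46 in IM5 (exact permutation p = 0.0628). Each lost the criteria when any one of 4 pigs was left out.

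No measured gene met the criteria in fatty acid oxidation and PPARA targets (19 genes), phosphatidylcholine and phosphatidylethanolamine synthesis (12), the unfolded protein response (22), NRF2 antioxidant genes (19), interferon-stimulated genes (28), chitinases and chitin-directed receptors (11), oxidative phosphorylation (37), the proteasome (24) or complement and coagulation (31). Their medians lay between -0.055 and 0.023. The interferon-stimulated genes varied widely between pigs, with IM5 replicate 5 the highest of the 12, and without it 22 of 28 were higher in IM10, against 13 with all pigs, the median was 0.079 and 1 gene met the criteria. Fatty acid oxidation also had 1 gene meeting the criteria without that pig.

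Of 6 genes taken from the study for their values, HAMP met the criteria and the other 5 did not. CISH, a feedback inhibitor of signalling through STAT5, was 5.72, 7.22 and 8.62 in IM10 pigs, against 5.48, 6.16 and 8.60 in IM5 pigs (exact permutation p = 0.318). The smooth muscle actin ACTG2 was 5.30 ± 1.32 in IM10 and 4.76 ± 1.65 in IM5 (exact permutation p = 0.535). TMEM52B, a membrane protein, was 3.26 ± 1.06 in IM10 and 2.90 ± 0.29 in IM5, and IM10 replicate 6 alone set that difference. ADAD1 and GTSF1, which act in germ cells, were 5.58 ± 1.33 and 3.85 ± 0.96 in IM10, against 6.31 ± 1.24 and 4.38 ± 0.59 in IM5 (exact permutation p = 0.335 and 0.284). Spread between pigs of 1 diet was wide in all 5 genes, with SDs between 0.29 and 1.65. Of the 32 measured genes on the list of genes taken from the study, 10 met the criteria, 5 in each direction. HAMP, ID1, SMAD7, SQLE and CYP7A1 were higher, and CLEC4F, CYP26A1, FKBP1B, ARG2 and ELOVL2 lower in IM10. FKBP1B is not named in the study's main text or in the qPCR results read here. The study's own liver qPCR, with all 10 pigs per group, found no significant difference for SQLE, CYP7A1 and ELOVL2. It used an analysis of variance across CON, IM5 and IM10 together, which is not a test of IM10 against IM5. Its means of IM10 and IM5 differed in the same direction as on the arrays for all of these genes. Part of the choice of listed genes was made on these pigs, so the directions are not independent evidence.

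The control pigs were set beside the leading genes as a description, without a test. For HAMP the medians were 6.70 in CON, 7.53 in IM5 and 8.27 in IM10, and CON pigs ranged from 5.31 to 7.94. For NNMT they were 6.24, 6.52 and 5.59, and CON pigs, at 5.13 to 7.62, spanned both other groups. For ELOVL2 they were 8.04, 8.18 and 7.43, and CON pigs, at 6.84 to 8.13, spanned all IM10 values. IM10 thus had the highest of the 3 medians in HAMP and the lowest in NNMT and ELOVL2. These genes were named for their difference between IM10 and IM5, and the study had picked HAMP for its rise over CON. Part of this order was therefore fixed by the choice of genes. KLF9 had medians of 6.02 in CON, 6.76 in IM5 and 6.34 in IM10, and PCK1 of 8.50, 9.0 and 8.58, and in both genes IM5 had the highest median. For HMGCS1 the medians were 10.7, 10.5 and 10.9, and for SLC50A1 they were 5.75, 5.94 and 5.60, with the CON median between the other groups.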

How the data were processed

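The authors deposited log2 values, made from 1-colour Affymetrix Porcine Gene 1.0 ST arrays by robust multi-array averaging (RMA), which corrects background, normalizes between arrays and summarises probes. Affymetrix Expression Console and RMA are the tools in the submitters' processing notes, with no version given in the sources used here. The log base of 2 was taken from that method. Depth is not defined for arrays, and the number of 6 arrays per group limits the precision.

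The platform annotation gave 13257 probe sets 1 gene symbol and 427 several genes, and 11704 were not listed. Of the 12307 different symbols, 890 had more than 1 probe set, and the one with the highest mean over the 12 arrays stood for the gene in the lists. Of the symbols' probe sets, 12804 had a symbol equal to that in the Sscrofa11.1 gene table, which served for names only. A total of 977 probe sets shared identical values with another.

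IM10 and IM5 entered a limma fit (limma 3.58.1, R 4.3.3) of these 12 arrays without covariates. The fold threshold of 1.2 and the unadjusted p threshold of 0.05 followed the study's methods, with Benjamini-Hochberg adjustment over all probe sets beside them. Single genes had an exact permutation test, two-sided, of the difference of means (924 arrangements). Both were tested on simulated data. Named were the 15 largest rises and 15 largest falls that met the criteria with 1 gene symbol, list members and completely separated probe sets that met them, and 6 genes of the study. Not every gene taken by this rule is printed. List members that did not meet the criteria were named after their values were seen. The 68 gene lists (50 pathway, 17 cell type and 1 of the study's genes) and the members named were chosen with earlier results of these data known. Alternatives were the Student test, quantile normalization, median centring, leaving out dim probe sets, a trended robust prior, 1 probe set per identical profile, the replicate number as a block and leaving out each array. For gene lists the last was added after seeing the data.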

Additional observations from a re-analysis of the deposited data

Results flagged for a closer look

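Dixon's test asked whether the gap of the highest or lowest pig to the next was large against the range of its group. It flagged 16 (11.6%) of 138 groups of 6 pigs, which were the IM10 and IM5 values of 69 probe sets. Chance flags about 1 in 20 groups when they are independent and not picked by their values. These probe sets were largely picked by their values in the same pigs, and GCAT entered with probe sets of nearly the same values. The share of 11.6% can therefore not be set against the chance rate. Of the flagged pigs, 9 were in IM10 and 7 in IM5.

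The flagged pig was the lowest of its group for SERPINA3-2 in IM10 replicate 1 (5.95), MOCS1 in IM10 replicate 4 (6.26), KCNK5 in IM10 replicate 3 (3.85), both probe sets of GCAT in IM10 replicate 1 (7.20 in each), UGT1A6 in IM5 replicate 2 (3.99) and NOSTRIN in IM5 replicate 5 (5.61). It was the highest of its group for NNMT in IM10 replicate 2 (6.43), PDE1C in IM10 replicate 1 (4.77), PIWIL3 in IM10 replicate 5 (3.24), TMEM52B in IM10 replicate 6 (5.25), CISH in IM5 replicate 4 (8.60), ACTG2 in IM5 replicate 6 (8.01), and in IM5 replicate 5 for ARG2 (4.98), KLF9 (7.13) and 1 probe set of GCAT (7.85). IM5 replicate 5 was flagged for 4 of these probe sets. No other measure of that pig was analysed here.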

How the results depend on the processing

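The count of 404 probe sets that met the criteria (210 higher, 194 lower in IM10) was 405 after quantile normalization and 404 after median centring, 386 with a trended robust prior, 400 with 1 probe set per identical profile and 276 by the Student test, of which 129 were lower. Without the probe sets under the median mean it was 175 (83 higher, 92 lower), with 12696 probe sets tested. With single arrays left out it ranged from 389 to 599 (207 to 308 higher, 182 to 291 lower), the highest without IM5 replicate 4, and at an unadjusted limma p under 0.05 from 1169 to 1755. After adjustment 0 were called under every alternative except without IM5 replicate 2, when 1 unnamed probe set (15345953) had a limma adjusted p of 0.0334 (0.881 with all arrays), so the range was 0 to 1. Same-numbered pigs correlated at -0.0618 to 0.122, over 0.1 in 2 of 6 pairs, and 3 of 6 correlated best with their own number. With so few and such low correlations, whether the replicate numbers pair the pigs could not be decided. With the replicate block 450 probe sets met the criteria (229 higher, 221 lower).

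Of 59 named probe sets that met the criteria, 36 lost them without some single array. Of 36 with an exact permutation p under 0.05, 15 lost it. The direction turned for TMEM52B without IM10 replicate 6 (range -0.04 to 0.528) and for SERPINA3-2 without IM10 replicate 1 (range -1.077 to 0.105). All 68 list medians moved by less than the spread between pigs, except that of the urea cycle, which was -0.065 with the median over all probe sets of a gene. Moves within that spread could still be large against the median. Without single pigs the gluconeogenesis median ranged from -0.239 to -0.09. Some medians took both signs, among them the unfolded protein response (-0.0085 to 0.0658) and the interferon-stimulated genes (-0.0617 to 0.0793).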

Other observations

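Among the 54 probe sets that separated the groups completely, some below the fold threshold encode proteins that handle pre-mRNA, picked here after their values were seen. The splicing factor gene SRSF5 was 8.79 ± 0.051 in IM10 and 8.54 ± 0.098 in IM5. ZRANB2 was 8.05 ± 0.063 in IM10 and 7.80 ± 0.078 in IM5, and LUC7L3 was 8.82 ± 0.068 in IM10 and 8.61 ± 0.087 in IM5. SF3B1 and RBM39 were higher in IM10 by 0.082 and 0.118. No test of these genes as a group was made.

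Unnamed probe sets, also given after their values were seen, held the largest difference of all, -1.50, at 6.27 ± 1.62 in IM10 and 7.78 ± 1.24 in IM5 (exact permutation p = 0.102). A bright unnamed probe set was 10.2, 11.1 and 11.7 in IM10 pigs, against 11.6, 11.9 and 12.1 in IM5 pigs (1.72-fold lower, exact permutation p = 0.00649), and another was 10.2 ± 0.62 in IM10 and 11.1 ± 0.34 in IM5 (exact permutation p = 0.013). The exact p of both stayed at or under 0.0281 without any single pig. UGT1A6 had 1 probe set with 4 of 6 IM10 pigs and 5 of 6 IM5 pigs on the higher of 2 levels, while its other 2 probe sets differed by -0.005 and -0.025.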
